A study of Mus musculus with 12 samples.

Results

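The 9 genes described here are 4 members of the Ly6/uPAR family (Lypd1, Lynx1, Lypd6 and Lypd6b) and 5 subunits of neuronal nicotinic acetylcholine receptors (Chrna3, Chrna4, Chrna5, Chrna7 and Chrnb2). They were chosen by symbol from the 41388 genes of the deposited tables, and each symbol matched 1 gene. Lypd1 was picked because it moved in opposite directions in the 2 mouse lines of the study, so its own contrasts are given as a description without a test. The other 8 genes are related to it by family or by the receptors that the family binds. They too were chosen with earlier results of these data known. All 9 genes passed the filter on low counts, as did 17441 genes in all.

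Nicotinic acetylcholine receptors are ligand-gated cation channels built from several subunits around a pore. In cortex the principal forms combine alpha4 with beta2, in part with alpha5 added, or consist of alpha7 alone. Ly6/uPAR proteins share the three-finger fold of snake alpha-neurotoxins, and several that are tethered to the neuronal membrane bind nicotinic receptors and alter their response to acetylcholine, which gave them the name prototoxins. Lynx1 and Lypd1 (also called Lynx2) are the best known of these brakes on nicotinic signalling in brain.

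The data are 12 poly(A) RNA-seq libraries, each of 1 adult C57Bl/6 mouse and made from cortex. The alleles concern exon 5 of Grin1, the gene of the obligatory NMDA receptor subunit GluN1: the exon is an alternative cassette that encodes a short extracellular segment. Knock-in animals (KI, genotype Grin1-exon5+/+, 3 libraries) carry the exon constitutively and knockout animals (KO, Grin1-exon5-/-, 3 libraries) lack it. Each line has a wild-type group of its own (KI_WT and KO_WT, 3 libraries each). The labels name no transgene, Cre driver or treatment, and all groups share the strain. Libraries are named by group and a number given in record order. The number pairs nothing.

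Depth was even, at 31790970 to 36514024 gene-assigned counts in a library. Grin1 itself lay between 269 and 363 CPM (counts scaled to library size after TMM correction, the unit of all levels below unless RPKM is named), and its log2 fold change was -0.04 (SE 0.10) in KI and -0.12 (SE 0.10) in KO against their wild types. The tables hold whole genes, so this level does not check the exon. Cortical identity was clear from Slc17a7, the vesicular glutamate transporter of cortical projection neurons (523 to 1081 CPM), from Cux2 of upper layers (43.1 to 82.5 CPM) and from Fezf2 of layer 5 (12.4 to 24.5 CPM). Libraries differed in RNA of neighbouring regions. Ttr, the leading transcript of choroid plexus, ranged from 2.36 to 1781 CPM. Summed olfactory bulb markers exceeded 100 CPM in KI_WT 3, KO 1 and KO_WT 3. Y-linked genes summed to at least 185 CPM in KI 1, KI_WT 2, KI_WT 3, KO 3 and all KO_WT libraries and to at most 0.120 CPM in the others, so that sex was mixed in KI, KI_WT and KO but not in KO_WT. Animal numbers below 200 occurred in KO 1, KO_WT 2 and KO_WT 3.

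Lypd1 (ENSMUSG00000026344) lies on chromosome 1, GRCm38 position 125867622 to 125913101, minus strand. RefSeq gives it 3 start sites, and the gene-level count adds the transcripts of all 3. Their promoters are shown because any difference in Lypd1 below could come from any of them. Each stretch runs from 250 bases before to 50 bases after a start site in RefSeq's GRCm38.p6 table, on the minus strand, 5′ to 3′. Start site 1 is at chr1:125912879-125913178, start site 2 at chr1:125912165-125912464 and start site 3 at chr1:125911338-125911637. Capitals mark matches to 5 short motifs searched on both strands: the GC box GGGCGG, the TATA box TATAAA, the E-box CACGTG, the cyclic AMP response element TGACGTCA and the CCAAT box CCAAT. At start site 1 the CCAAT matches lie on opposite strands and overlap in the run CCAATTGG, and no other matches overlap.
Lypd1 start site 1: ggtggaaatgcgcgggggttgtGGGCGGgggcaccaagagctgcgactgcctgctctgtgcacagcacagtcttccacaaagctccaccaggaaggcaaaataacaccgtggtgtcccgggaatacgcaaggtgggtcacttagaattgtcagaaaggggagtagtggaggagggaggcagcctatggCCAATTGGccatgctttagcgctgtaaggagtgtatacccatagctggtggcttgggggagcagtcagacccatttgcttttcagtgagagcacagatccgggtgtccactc
Lypd1 start site 2: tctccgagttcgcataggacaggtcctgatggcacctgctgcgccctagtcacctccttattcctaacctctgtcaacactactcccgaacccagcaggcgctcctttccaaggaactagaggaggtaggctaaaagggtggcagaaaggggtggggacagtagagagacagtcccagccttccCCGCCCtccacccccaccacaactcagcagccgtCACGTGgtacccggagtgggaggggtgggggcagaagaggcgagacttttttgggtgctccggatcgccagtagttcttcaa
Lypd1 start site 3: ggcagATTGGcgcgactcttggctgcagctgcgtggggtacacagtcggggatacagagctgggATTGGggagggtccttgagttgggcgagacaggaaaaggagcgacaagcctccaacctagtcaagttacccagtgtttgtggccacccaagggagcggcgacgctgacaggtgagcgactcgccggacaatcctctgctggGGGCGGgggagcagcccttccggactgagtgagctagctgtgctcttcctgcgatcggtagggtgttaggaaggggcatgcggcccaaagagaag

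Each of the 3 held 1 GC box, a motif present in 35.7% of the 32851 promoters of the same length in the table. Start site 2 held 1 E-box (7.15% of promoters), and start sites 1 and 3 held 2 CCAAT boxes each (37.4% of promoters). Neither TATAAA (13.6%) nor TGACGTCA (1.79%) occurred in any of the 3 stretches. CpG dinucleotides numbered 9, 12 and 17 at start sites 1, 2 and 3, against a median of 7 over all promoters. A match is a match of letters and shows no bound factor. Lypd6, Chrna3, Chrna4, Chrna5, Chrna7 and Chrnb2 are also in the table, and Lynx1 and Lypd6b are the 2 genes of the set with no entry.

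Among the 9 genes 2 pairs are neighbours. Lypd6b (ENSMUSG00000026765, chromosome 2, 49787688 to 49948849) and Lypd6 (ENSMUSG00000050447, chromosome 2, 50066429 to 50193569) are both on the plus strand, 117579 bases apart. No protein-coding gene lies wholly between them. Chrna5 (ENSMUSG00000035594, chromosome 9, 54980880 to 55007779, plus strand) and Chrna3 (ENSMUSG00000032303, chromosome 9, 55010111 to 55026562, minus strand) are 2331 bases apart, and Chrnb4, the beta subunit that commonly assembles with alpha3, follows Chrna3 after 1591 bases. The other genes lie apart from the rest of the set, all on the minus strand. Lynx1 (ENSMUSG00000022594) is at chromosome 15, 74747852 to 74753046, and Chrna4 (ENSMUSG00000027577) at chromosome 2, 181018380 to 181043546. Chrna7 (ENSMUSG00000030525) is at chromosome 7, 63098692 to 63212569, and Chrnb2 (ENSMUSG00000027950) at chromosome 3, 89746195 to 89764632. Neighbours of these genes outside the set were not listed, apart from overlapping genes. The exons of Lypd1 share 1202 bases, 17.1% of their length, with Gpr39 on the opposite strand, and those of Chrnb2 share 1365 bases (16.3%) with Adar on the opposite strand. The strand setting of the counting is not given in the sources used here, so reads in these stretches cannot be assigned with certainty. Both shares are of the annotation used here for positions. For Lypd1 its 7038 exonic bases match the length implied by the deposited counts and RPKM, 7.038 kb. For Chrnb2 that length was 5.38 kb against 8380 exonic bases, so the share with Adar may not hold for the gene as counted. Gpr39 was scarce, at 1.3 to 3.2 CPM, with log2 fold changes of 0.18 (SE 0.29) in KI and 0.12 (SE 0.28) in KO. Adar was abundant, at 135 to 178 CPM, with log2 fold changes of 0.11 (SE 0.09) in KI and -0.06 (SE 0.09) in KO.

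Levels between genes were compared in RPKM (reads per kilobase of gene scaled to library size, the deposited per-length value). Lynx1 was by far the most abundant of the 9, at 78.6 ± 9.47 RPKM (SD, n = 12; range 60.8 to 90.8), and Lypd1 followed at 13.4 ± 2.68 (9.55 to 18.3). The ratio of their means was 5.85, and every library held more Lynx1 than Lypd1. Chrnb2 came next at 9.77 ± 1.05 RPKM, then Lypd6 at 9.09 ± 1.37. These adjacent genes do not separate beyond their spread, since Lypd1 exceeded Chrnb2 in 10 of 12 libraries and Chrnb2 exceeded Lypd6 in 8 of 12.

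Below Lypd6, which exceeded Chrna7 in 12 of 12 libraries although their overall ranges overlap, 3 genes lay close together. Chrna7 stood at 5.37 ± 0.785 RPKM, Chrna4 at 5.25 ± 1.02 and Lypd6b at 4.67 ± 0.580 (SD, n = 12). Chrna7 was above Chrna4 in 6 of 12 libraries and Chrna4 above Lypd6b in 9 of 12. A second gap followed, with a ratio of means of 5.23 between Lypd6b and Chrna5 and no overlap of their ranges. Chrna5, the accessory alpha subunit of deep cortical layers, was at 0.893 ± 0.244 RPKM and Chrna3, a subunit of ganglia and medial habenula, at 0.582 ± 0.352 (SD, n = 12). The order was the same when TMM-scaled CPM were divided by gene length. That length was derived from the deposited counts and RPKM, so the same order is not an independent check. Among the 27909 genes with any count, the mean RPKM put Lynx1 at the 98.0th percentile, Lypd1 at 84.9, Chrnb2 at 80.5, Chrna4 at 71.2 and Chrna3 at 47.8.

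**Figure D1:**
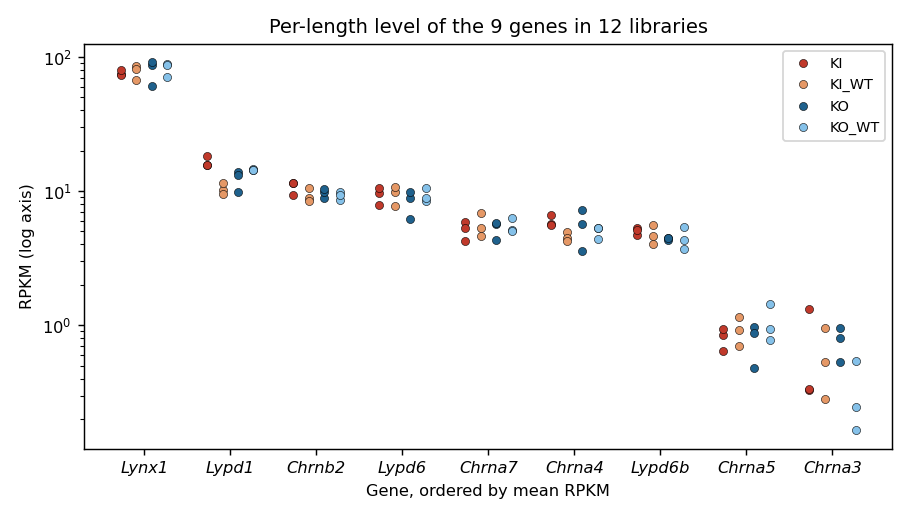
Level of each gene per unit length (RPKM, log axis) in the 12 libraries, with genes ordered by mean and 1 point per library coloured by group. Lynx1 stands apart at 60.8 to 90.8 RPKM, and every value of Chrna5 and Chrna3 lies below every value of the other 7 genes.

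Lypd1 was lower in the wild types of the knock-in line than in any other group by mean, and higher in KI. In KI 1 to KI 3 it measured 128, 104 and 110 CPM, and in KI_WT 1 to KI_WT 3 it measured 74.0, 82.4 and 66.5 CPM. All 3 KI libraries lay above all 3 KI_WT libraries. Group means of 114 ± 12.4 and 74.3 ± 7.99 CPM (SD, n = 3) gave a 1.53-fold ratio, or 0.61 on the log2 scale (SE 0.13). Marker lists differed too. The mean was higher in KI for 7 of 7 basal forebrain cholinergic, 9 of 10 thalamus and 8 of 9 choroid plexus markers. It was higher for 0 of 7 olfactory bulb, 1 of 5 pan-neuronal and 1 of 6 layer 5 markers, and for 3 of 5 oligodendrocyte and 2 of 4 endothelium markers. None was called by edgeR, and their part in the Lypd1 values was not tested.

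In the knockout line the order of the groups in Lypd1 was the opposite. KO 1 to KO 3 held 95.5, 68.2 and 92.8 CPM of Lypd1, and KO_WT 1 to KO_WT 3 held 108, 103 and 103 CPM. The KO libraries all lay below the KO_WT libraries, but KO 1 and KO 3 only by a small margin. Means were 85.5 ± 15.1 and 105 ± 2.76 CPM (SD, n = 3), and the log2 fold change was -0.29 (SE 0.13). This value leaned on KO 2: without that library it was -0.15, and without KO 1 it was -0.38. Several marker lists were also lower in KO, not only glial and vascular ones. The 4 microglia markers summed to 191 to 224 CPM in KO and 234 to 282 in KO_WT, and the 4 endothelium markers to 169 to 206 and 207 to 243 CPM, with a lower mean in KO for 4 of 4 in each list. The 5 oligodendrocyte markers summed to 6659, 4451 and 9917 CPM in KO 1 to KO 3 and to 8334 to 10714 CPM in KO_WT, with a lower mean for 5 of 5 and the lowest sum of all libraries in KO 2. Of striatum and of basal forebrain cholinergic markers 0 of 7 each had a higher mean in KO. For upper-layer neurons it was 1 of 7, and for hippocampus and for astrocytes 1 of 5 each. Other lists went the other way, with 9 of 10 thalamus and 9 of 9 choroid plexus markers higher in KO. None of these markers was called by edgeR, and their part in the Lypd1 values was not tested.

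Lypd1 also differed between the wild types of the lines, by an amount between the sizes of the mutant effects. The log2 fold change of KI_WT over KO_WT was -0.49 (SE 0.13), a ratio of 0.710, and the 2 groups did not overlap. KI and KO_WT overlapped, with a ratio of means of 1.09, as did KI_WT and KO, with a ratio of 0.869. In order of their means the groups therefore ran KI, KO_WT, KO and KI_WT, with overlap between KI and KO_WT and between KO and KI_WT. The difference between the 2 mutant effects was 0.91 on the log2 scale (SE 0.18), of which the difference between the wild-type groups is a part. The SEs printed for Lypd1 take no account of its choice on these contrasts and are no basis for a test. Between the wild types, line and animal source cannot be told apart, since each line has its own controls.

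With 1 library left out at a time, the Lypd1 log2 fold change was 0.53 to 0.70 in KI, -0.38 to -0.15 in KO and -0.57 to -0.42 between the wild types. The choice of Lypd1 and the lack of overlap fix the signs of these values, which therefore say nothing about stability. A term for Y-linked genes gave 0.66 in KI and -0.20 in KO, terms for thalamus, olfactory bulb and choroid plexus markers gave 0.68 and -0.22, and a term for animal numbers below 200 gave 0.61 and -0.26. In bulk tissue fewer cells of a type and less RNA per cell cannot be told apart, which holds for all values here.

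**Figure D2:**
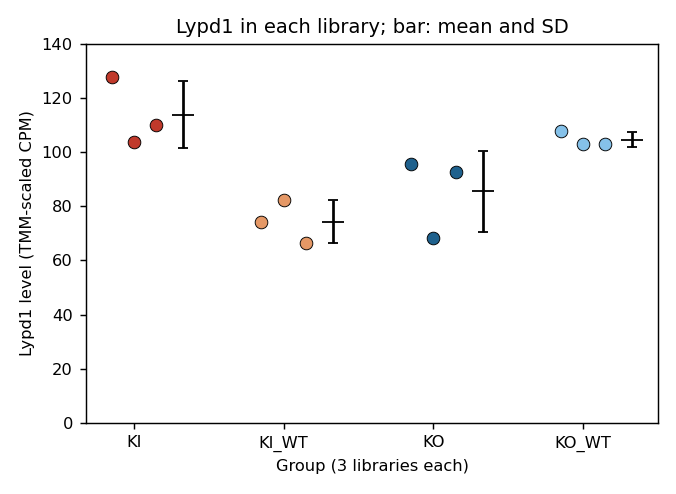
Lypd1 in each library (TMM-scaled CPM, axis from 0) by group, with the mean and SD of each group of 3 beside the points. KI sits at 104 to 128 CPM above KI_WT at 66.5 to 82.4, and KO at 68.2 to 95.5 below KO_WT at 103 to 108.

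Background shares over all genes were counted first. In KI against KI_WT, edgeR's quasi-likelihood test called 0% of all genes tested at an adjusted p under 0.05, 6.96% lay under an unadjusted p of 0.05, and the libraries of the groups did not overlap, in either direction, for 12.2% of genes. For the knockout line these shares were 0.00573%, 7.22% and 12.4%. For the difference of effects, 0.00573% were called and 5.26% lay under the unadjusted threshold. Between the wild types 0% were called, 1.96% lay under the unadjusted threshold and 7.31% did not overlap. Lypd1 was chosen on these contrasts, so nothing is read from its place among them.

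None of the other 8 genes was called in any of the 4 comparisons, and 0 of 8 had even an unadjusted p under 0.05 in edgeR. The smallest adjusted p was 0.763 in KI, 0.678 in KO, 0.920 for the difference and 0.9998 between the wild types. With DESeq2 and with limma on log2 RPKM, 0 of 8 were called as well. At the unadjusted threshold DESeq2 counted 1 of 8 in KO (Chrna3, at a log2 fold change of 1.22), where 7.3% of all genes lay under it. With limma it was 0 of 8 in each comparison. Without Lypd1, 4 of 8 genes were higher and 4 lower in KI than in KI_WT, with a median log2 fold change of -0.02 against -0.01 over all genes. In KO 3 of the 8 were higher and 5 lower, with a median of -0.09 against 0.01 over all genes. Of the 8 genes other than Lypd1, the groups did not overlap for 1 in KI (Chrna4) and for 0 in KO and between the wild types, against 12.2%, 12.4% and 7.31% of all genes.

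**Figure D3:**
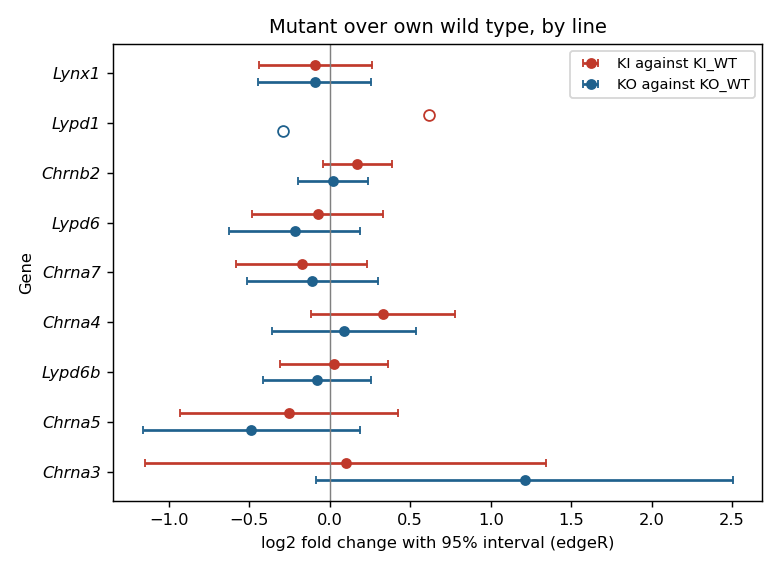
Log2 fold change of mutant over its own wild type for each gene, with red for the knock-in line and blue for the knockout line. Bars are 95% intervals computed from the edgeR fit, and Lypd1 is an open point without one because it was chosen on these values. The intervals of the other 8 genes all include 0, from narrow ones for Chrnb2 to wide ones for Chrna3.

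Lynx1, the prototoxin that restrains cortical plasticity in the adult, passed the test in neither line. It measured 343, 321 and 375 CPM in KI, 410, 388 and 308 CPM in KI_WT, 276.5, 392.4 and 426.9 CPM in KO, and 425, 414 and 330 CPM in KO_WT. Groups overlapped throughout, and the spread within KO (365 ± 78.8 CPM, SD, n = 3) was wider than any difference of means. Log2 fold changes of Lynx1 were -0.09 in KI (95% interval -0.44 to 0.26; edgeR adjusted p = 0.930) and -0.09 in KO (-0.45 to 0.26; adjusted p = 0.896).

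Lypd6 and Lypd6b encode related Ly6 proteins that also act on nicotinic receptors in neurons, with Lypd6 known as well as a Wnt co-receptor partner. Lypd6 measured 28.9, 33.9 and 39.2 CPM in KI, 37.8, 41.1 and 28.5 in KI_WT, 32.3, 22.6 and 36.8 in KO, and 41.2, 32.0 and 33.5 in KO_WT. Its lowest value was that of KO 2, the library in which Lypd1 was also low within KO. Its log2 fold change was -0.07 in KI (95% interval -0.48 to 0.33; edgeR adjusted p = 0.951) and -0.22 in KO (-0.63 to 0.19; adjusted p = 0.771). Without KO 2 the latter was -0.04.

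Lypd6b measured 12.2, 13.0 and 13.3 CPM in KI, 12.5, 14.9 and 10.4 in KI_WT, 11.3, 10.9 and 11.8 in KO, and 14.7, 9.86 and 11.3 in KO_WT. Both mutant groups varied little, with SDs of 0.555 and 0.428 CPM, and lay inside the range of their wild types. For Lypd6b the log2 fold change was 0.03 in KI (95% interval -0.31 to 0.36; edgeR adjusted p = 0.979) and -0.08 in KO (-0.42 to 0.25; adjusted p = 0.907).

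Among the receptor subunits, Chrna4 and Chrnb2 form the most widespread high-affinity receptor of the brain. Chrna4 measured 32.4, 26.4 and 27.7 CPM in KI and 25.3, 22.6 and 20.7 CPM in KI_WT, without overlap. In the knockout line it measured 17.2, 27.6 and 35.7 CPM in KO, a range that encloses the KO_WT values of 27.2, 26.5 and 21.9 CPM. The log2 fold change was 0.33 in KI (95% interval -0.12 to 0.78; edgeR adjusted p = 0.776) and 0.09 in KO (-0.36 to 0.54; adjusted p = 0.925). Neither passed the test.

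Thalamus markers were higher with Chrna4 in KI. The 10 markers summed to 359, 214 and 269 CPM in KI and to 140, 130 and 134 CPM in KI_WT, and 9 of 10 had a higher mean in KI. In KO they summed to 134, 239.9 and 366.3 CPM and in KO_WT to 113, 272 and 121 CPM. The 2 libraries with the highest thalamus sums, KO 3 and KI 1, were also the 2 with the most Chrna4, and thalamic neurons are known for high alpha4 and beta2 content. Within KO_WT the order differed: KO_WT 2 had the third highest sum with 26.5 CPM of Chrna4, and KO_WT 1 the lowest sum with 27.2 CPM. With terms for thalamus, olfactory bulb and choroid plexus markers added, the Chrna4 difference in KI was 0.06. Every KI library had a higher thalamus sum than every KI_WT library, so that fit cannot fully tell group and thalamus markers apart. What part thalamic RNA has in the Chrna4 values was not tested.

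**Figure D4:**
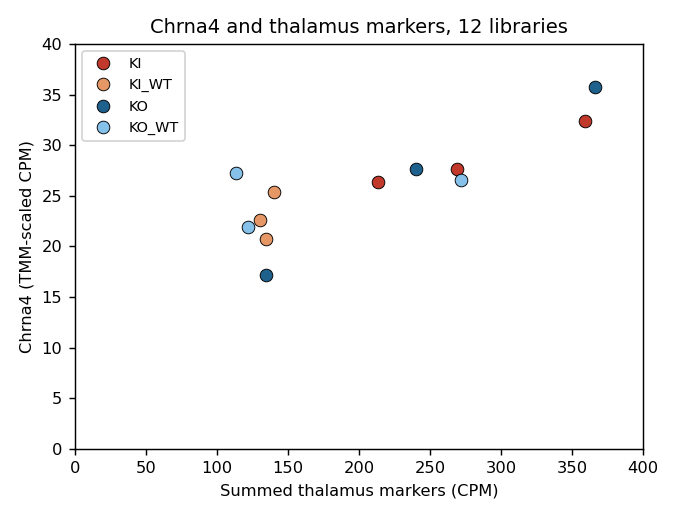
Chrna4 against the summed level of 10 thalamus markers (both TMM-scaled CPM, axes from 0), 1 point per library coloured by group. KO 3 and KI 1 hold the highest values on both axes, and the 3 KI_WT libraries lie together at 130 to 140 CPM of thalamus markers and 20.7 to 25.3 CPM of Chrna4.

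Chrnb2 was the steadiest of the 9 genes. It measured 61.1, 58.6 and 50.7 CPM in KI, 49.2, 46.1 and 56.1 in KI_WT, 47.0, 52.2 and 56.2 in KO, and 48.2, 53.8 and 51.1 in KO_WT. Its coefficient of variation over the 12 libraries was 8.996%, against 13.1% to 58.3% for the other 8 genes. Its log2 fold change was 0.17 in KI (95% interval -0.04 to 0.39; edgeR adjusted p = 0.763) and 0.02 in KO (-0.20 to 0.24; adjusted p = 0.967). With the regional terms the KI value was -0.04.

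Chrna5 encodes a subunit that joins alpha4-beta2 receptors, in cortex mostly in layer 6 neurons, and cannot form a channel by itself. It measured 2.29, 1.65 and 2.57 CPM in KI, 3.27, 2.60 and 1.91 in KI_WT, 1.29, 2.60 and 2.43 in KO, and 2.24, 4.0 and 2.62 in KO_WT. The mutant mean was the lower in each line, by -0.25 (95% interval -0.93 to 0.42; edgeR adjusted p = 0.891) and -0.49 (-1.16 to 0.19; adjusted p = 0.706) on the log2 scale, with overlapping groups in both. Without KO_WT 2, the highest library, the knockout value was -0.20, and without KI_WT 1 the knock-in value was -0.06. With the regional terms the values were -0.84 in KI (edgeR adjusted p = 0.696) and -0.83 in KO (adjusted p = 0.967). Summed layer 6 markers were 189 to 246 CPM in KI, 187 to 295 in KI_WT, 188 to 246 in KO and 175 to 239 in KO_WT.

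Chrna7, the subunit of the fast, calcium-permeable homomeric receptor, measured 12.2, 8.30 and 11.2 CPM in KI, 14.8, 9.99 and 11.0 in KI_WT, 8.82, 11.6 and 12.2 in KO, and 11.1, 13.3 and 10.7 in KO_WT. Groups overlapped in both lines. Chrna7 had a log2 fold change of -0.18 in KI (95% interval -0.58 to 0.23; edgeR adjusted p = 0.873) and -0.11 in KO (-0.52 to 0.30; adjusted p = 0.896).

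Chrna3 was the least abundant and the most variable. It measured 1.02, 3.88 and 1.05 CPM in KI, 0.91, 1.71 and 2.93 in KI_WT, 1.62, 2.45 and 2.98 in KO, and 0.54, 0.78 and 1.71 in KO_WT, from 17 to 136 counts in a library. KO 2 and KO 3 exceeded every KO_WT library, and KO 1 lay just under KO_WT 3. The log2 fold change in KO was 1.21, the largest of the 9 genes, with a wide interval (-0.08 to 2.51; edgeR adjusted p = 0.678). In KI it was 0.10 (-1.15 to 1.35; adjusted p = 0.980), and its sign depended on 1 library: without KI 2 it was -0.84 and without KI_WT 3 it was 0.61.

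The 4 libraries with the most Chrna3 were KI 2, KO 3, KI_WT 3 and KO 2. The habenula genes Gpr151 and Pou4f1 were high in KI 2, KO 3 and KO 2, and summed olfactory bulb markers in KI_WT 3. Gpr151, a receptor of habenular neurons, was at 7.05 CPM in KI 2, 4.28 in KO 2 and 4.5 in KO 3, whereas the other 9 libraries held 0.472 to 0.866 CPM. Pou4f1, a habenular transcription factor, was at 2.05, 1.05 and 1.46 CPM in the same 3 libraries, at 0.917 CPM in KI_WT 2, at 0 in KO 1 and KO_WT 2, and at no more than 0.226 CPM elsewhere. The 4 habenula markers had a higher mean in KI for 4 of 4 and in KO for 3 of 4. Their sum, 39.1 to 70.6 CPM, is mostly Nwd2, which alone held 37.1 to 63.8 CPM. This sum did not follow Chrna3. KO_WT 1, with the least Chrna3 (0.54 CPM), had a sum of 61.1 CPM, against 59.8 in KI 2 and 60.3 in KO 3.

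Olfactory bulb markers summed to 336 CPM in KI_WT 3, 157 in KO_WT 3, 126 in KO 1 and 65.0 in KI 2, and to at most 30.5 CPM in the others. KO_WT 3 and KO 1 held only 1.71 and 1.62 CPM of Chrna3, and KO 3, with 2.98 CPM of Chrna3, had a bulb sum of 8.98 CPM. Chrnb4, the partner next to Chrna3, was at 1.77 CPM in KI 2, 1.79 in KI_WT 3, 1.35 in KO 2 and 1.05 in KO_WT 3, each the highest of its group. Without KI_WT 3, KO 1 and KO_WT 3, the 3 libraries above 100 CPM of olfactory bulb markers (a choice made after the data were seen), the Chrna3 value in KO was 2.04. With the regional terms it was 0.82, and without KO_WT 1 or KO_WT 3 it was 0.91 or 1.83. What part RNA of habenula or olfactory bulb has in the Chrna3 values was not tested.

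**Figure D5:**
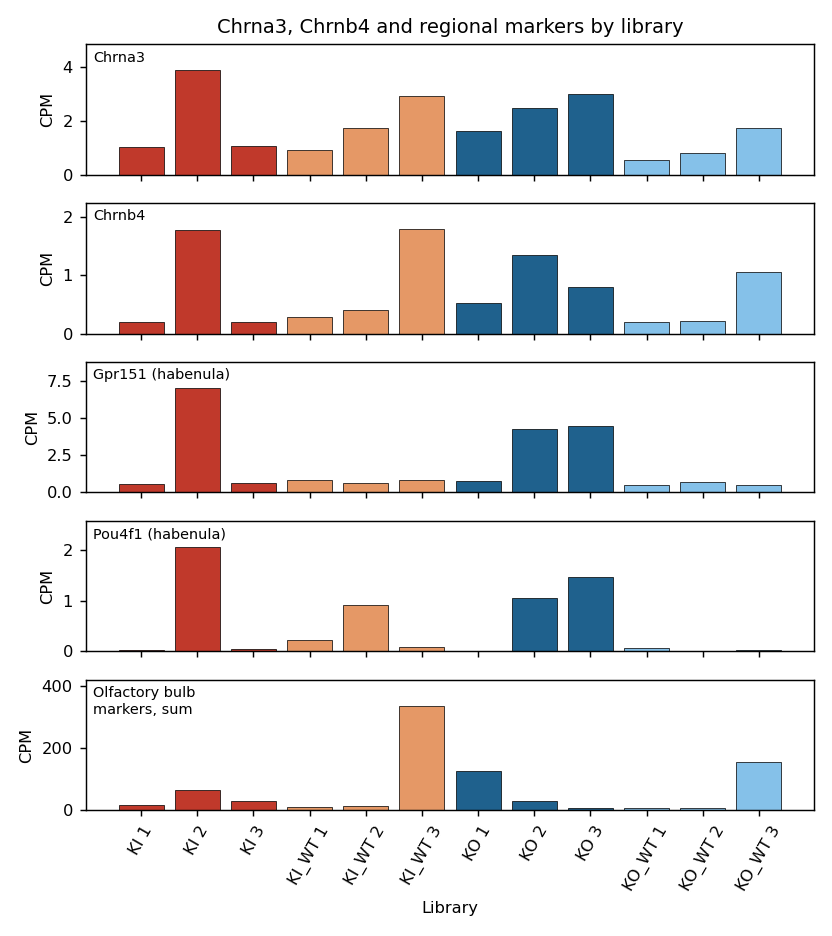
Chrna3, Chrnb4, 2 habenula genes (Gpr151 and Pou4f1) and the summed olfactory bulb markers in each library (TMM-scaled CPM, bars from 0), coloured by group. KI 2, KO 2 and KO 3 are high in Chrna3, Gpr151 and Pou4f1, whereas KI_WT 3 is high in Chrna3, Chrnb4 and olfactory bulb markers.

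The difference of effects between the lines did not pass the test for any of the 8 genes. It was -1.11 for Chrna3 (95% interval -2.91 to 0.68; edgeR adjusted p = 0.920), 0.24 for Chrna4 (-0.39 to 0.88; adjusted p = 0.939) and 0.23 for Chrna5 (-0.72 to 1.19; adjusted p = 0.959). For Lynx1 it was 0.00 (-0.49 to 0.50), and for Chrna7 -0.07 (-0.64 to 0.51). The 2 effects use separate control groups. Between the wild types the values ran from -0.19 for Chrna5 to 0.87 for Chrna3 (95% interval -0.44 to 2.18; edgeR adjusted p = 0.9998). For Chrna3 the wild types differed by 0.38 without KI_WT 3 and by 1.49 without KO_WT 3.

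The remaining genes of nicotinic signalling gave no call either, over lists chosen by function. Of the 11 other nicotinic subunits 7 were tested, and the muscle subunits Chrnd and Chrng were at a count of 0 in all 12 libraries. The edgeR test called 0 of 7 in KI and in KO, with medians of -0.20 and 0.01 and no unadjusted p under 0.05. Chrnb4 had a log2 fold change of -0.20 (SE 0.91) in KI and 0.86 (SE 0.94; adjusted p = 0.819) in KO. Chrna6, a subunit of catecholaminergic and visual neurons, had -0.64 (SE 0.66; adjusted p = 0.868) in KI, and Chrna10, best known from hair cells, ranged from 0 to 1.79 CPM with its maximum in KI_WT 3.

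Of 34 other Ly6/uPAR genes listed, 31 were in the table, 10 were tested and 7 were at 0 in all libraries. None of the 10 was called. Under the unadjusted threshold lay 1 in KI and 1 in KO, against 6.96% and 7.22% of all genes. The medians were 0.19 in KI and 0.20 in KO. Ly6e, a broadly expressed family member, averaged 147 ± 8.85 CPM in KI against 127 ± 9.50 in KI_WT (SD, n = 3). Its log2 fold change was 0.21 in KI (edgeR adjusted p = 0.715) and -0.13 in KO (adjusted p = 0.736). Its direction in each line was thus that of Lypd1, in values that did not pass. Ly6g6e, which modulates nicotinic currents in cell culture, had a log2 fold change of 2.02 in KO (SE 0.85; edgeR adjusted p = 0.678), with 21.9 CPM in KO 2 and at most 6.96 CPM in every other library. Cd59b, a complement inhibitor, had 0.60 (SE 0.29; adjusted p = 0.678) in KO.

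Receptor assembly and partner genes, which include the chaperones Ric3 and Tmem35, were called in 0 of 8 cases in both lines, with medians of 0.02 in KI and 0.05 in KO. Creld2, an endoplasmic reticulum protein that binds alpha4 and beta2, was at 15.3 ± 1.02 CPM in KI against 11.6 ± 1.88 in KI_WT and at 14.4 ± 2.12 in KO against 11.8 ± 1.77 in KO_WT (SD, n = 3). Its log2 fold changes were 0.40 (edgeR adjusted p = 0.705) and 0.28 (adjusted p = 0.686). Rapsn, the clustering protein of the muscle receptor, was scarce at 0.299 to 0.548 CPM. Unc50 had a log2 fold change of 0.10 (SE 0.08) in KO.

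Genes of acetylcholine synthesis, transport and breakdown were called in 0 of 8 cases in either line. In KI 5 were higher and 3 lower, with a median of 0.17, and in KO 1 was higher and 7 lower, with a median of -0.14. At the unadjusted threshold there was 1 in KI and 3 in KO, against 6.96% and 7.22% of all genes. Ache, acetylcholinesterase, averaged 44.7 ± 12.5 CPM in KO against 32.0 ± 1.95 in KO_WT (SD, n = 3), with 58.1 CPM in KO 2, and its log2 fold change of 0.48 did not pass (edgeR adjusted p = 0.678). Prima1, the membrane anchor of acetylcholinesterase, had -0.56 (adjusted p = 0.678) in KO, and Bche, butyrylcholinesterase, had -0.45 (adjusted p = 0.705) in KI. The 5 muscarinic receptor genes gave 0 calls, with medians of -0.11 in KI and -0.19 in KO. Chrm1, the main cortical form, had -0.28 (SE 0.13; adjusted p = 0.678) in KO, Chrm3 had -0.43 (SE 0.20; adjusted p = 0.678) in KO, and Chrm2 had -0.46 (SE 0.28; adjusted p = 0.773) in KI.

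The pattern of Lypd1 over the 12 libraries was compared with that of 14602 genes with a mean of at least 1 CPM, by Pearson correlation of log2 CPM. The most alike were Mrps18a (r = 0.92), Gm15440 (0.90), Paf1 (0.90), Tmem164 (0.89) and Parvb (0.88), and the most opposite were Zfp711 (-0.88), Bbc3 (-0.87) and Ccdc132 (-0.86). The libraries share group, depth and dissection, and these are the extremes of many comparisons, so the values are a description. Mrps18a, a mitochondrial ribosomal protein gene, varied only from 24.6 to 28.0 CPM. Once group means were removed, 0 of the same 5 genes were among the 5 most alike, although Mrps18a stayed at r = 0.93, close to the 0.94 of Gstm1 in the fifth place, and the other 4 were at 0.66 to 0.80. No member of the set was among the most alike: r of Lypd1 with the other 8 genes ran from -0.41 (Chrna3) to 0.33 (Lypd6). With group means removed it ran from -0.41 (Chrna3) to 0.62 (Lypd6). Within the set the closest pairs over the 12 libraries were Chrna5 with Chrna7 (0.81), Lynx1 with Chrna5 (0.77) and Lypd6 with its neighbour Lypd6b (0.70). With group means removed Lynx1 with Chrna4 was the closest pair (0.88, against 0.68 before), followed by Chrna5 with Chrna7 (0.82).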

How the data were processed

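Cortex RNA of 12 mice was measured, in 4 groups of 3. The submitters' processing notes name bcl2fastq 2.17, STAR 2.5.0c, Cufflinks 2.2.1 and the build GRCm38. The read counter, annotation and strand setting are not given in the sources used here. The authors deposited raw counts per gene and RPKM for the same genes; count divided by RPKM gave 1 length per gene within 0.0789%. Of the gene IDs 40254 matched GENCODE M21 (GRCm38), used for positions, and 0 columns were left unassigned.

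Counts were fitted with edgeR 4.0.16 in R 4.3.3: filterByExpr (17441 genes), TMM scaling, quasi-likelihood with 1 mean per group over all 12 libraries (8 residual degrees of freedom; BCV, the biological coefficient of variation, 15.7%). P-values were adjusted by Benjamini-Hochberg over all genes within each of 4 comparisons, with a threshold of 0.05. They set differences of group means against the spread between these animals. Within groups, library pairs lay 13.6 to 73.9 times the sampling variance apart, so none was a copy. The pipeline was tested on simulated data.

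Alternatives were RLE size factors, no filter, DESeq2 1.42.0, limma 3.58.1 on log2(RPKM + 0.1) or log2(RPKM + 1) from the deposited RPKM (genes above 0.5 RPKM in at least 3 libraries), the compared groups alone, terms for regional markers, Y-linked genes or animal numbers below 200, and each library left out in turn. Leaving out the 3 libraries with over 100 CPM of olfactory bulb markers was chosen after seeing the data. The genes and lists were chosen with earlier results of these data known. Named besides the 9 genes are up to 3 genes of each list with the smallest unadjusted p in either mutant comparison, and the genes most like and unlike Lypd1 (5 and 3). Further genes (region markers, Gpr39, Adar) are named beside a result they touch.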

Additional observations from a re-analysis of the deposited data

Results flagged for a closer look

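Lypd1 moved one way in the knock-in line and the other way in the knockout line. Every KI library lay above the KI_WT mean and every KO library below the KO_WT mean, and the difference of the 2 effects was 0.91 on the log2 scale. The difference was not tested, because Lypd1 was chosen for it.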

How the results depend on the processing

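Over the 22 alternatives, as far as each applied to a comparison, 0 of the 8 genes other than Lypd1 were called. At an unadjusted p under 0.05 the highest count was 3 of 8, in KI with regional marker terms (Lypd6b at 0.42, Chrna5 at -0.84 and Chrna7 at -0.50), a fit in which 7.11% of all genes lay under it. For Lypd1, chosen on its direction, the values lay at 0.53 to 0.70 in KI, -0.39 to -0.15 in KO, 0.770 to 0.997 for the difference and -0.57 to -0.42 between the wild types. Of 621 log2 fold changes 61 changed sign, 40 of them with 1 library left out, and none of these belonged to a call. With regional marker terms the changed signs were, in KI, Lypd6 0.23, Chrna3 -0.40 and Chrnb2 -0.043, in KO, Lypd6 0.062, Lypd6b 0.26 and Chrnb2 -0.087, for the difference, Lynx1 -0.14, Chrna4 -0.039 and Chrna5 -0.0053, and between the wild types, Lynx1 0.059, Chrna4 0.13 and Chrnb2 0.036. A term for animal numbers below 200 gave Chrna4 -0.13 in KO, and Lypd6 -0.056, Lypd6b -0.078 and Chrna7 -0.080 between the wild types. A term for Y-linked genes gave Lynx1 -0.0037 for the difference and Chrnb2 0.026 between the wild types. Without the 3 libraries richest in olfactory bulb markers Lypd6b was -0.093 in KI, and the differences of Lynx1 and Chrna5 were -0.17 and -0.12. The cause of these changes was not tested.

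Leaving out 1 library at a time gave, in KI, Lypd6 -0.21 to 0.040, Lypd6b -0.091 to 0.17, Chrna3 -0.84 to 0.61 and Chrna7 -0.29 to 0.0097. In KO it gave Lynx1 -0.22 to 0.073, Lypd6b -0.20 to 0.099, Chrna4 -0.17 to 0.33, Chrna7 -0.19 to 0.023 and Chrnb2 -0.038 to 0.088. For the difference it gave Lynx1 -0.16 to 0.13, Lypd6 -0.028 to 0.30, Lypd6b -0.070 to 0.25, Chrna5 -0.049 to 0.43 and Chrna7 -0.19 to 0.11. Between the wild types it gave Lynx1 -0.18 to 0.036, Lypd6 -0.10 to 0.15, Lypd6b -0.068 to 0.26, Chrna5 -0.38 to 0.099, Chrna7 -0.15 to 0.14 and Chrnb2 -0.096 to 0.044. With group means removed, 0 of the 5 genes most like Lypd1 were the same. No paired analysis was made, since each library is of a different mouse and the labels pair no mice across groups. Depth limits Chrna3, with 17 to 136 counts in a library, and Chrna5 most. With 3 libraries a group, differences inside the printed intervals are not excluded.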
